A study of Homo sapiens with 9 samples.

Results

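The ER chaperone and XBP1 genes are 10 named genes of the unfolded protein response: XBP1, ERN1, HSPA5, HSP90B1, DNAJB9, PDIA4, SDF2L1, HERPUD1, EDEM1 and SEL1L. They were taken by symbol, all 10 were found among the 58336 genes of the deposited table, and all 10 reached the mean normalized count of 10 at which 17149 genes were compared. Nascent transcription was measured by precision run-on sequencing (PRO-seq), in which engaged RNA polymerases in permeabilized cells extend their transcripts by a labelled nucleotide. The cells were MEL624, a human melanoma line, in 3 groups of 3 biological replicates: the knockout clones PCIF1 KO1 and PCIF1 KO2, and control cells that were wild type with a random guide RNA. PCIF1 is the methyltransferase that adds the N6 methyl group to an adenosine next to the mRNA cap. Each knockout group is 1 clone, so against control what sets that clone apart cannot be told apart from the knockout. A difference between the clones is not shared by both knockout groups. Each library had an addition of 40000 Drosophila S2 cells as a spike-in.

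The table held the authors' mean of each group and no value per library. Replicate error is therefore not known and nothing could be tested, the depth of single libraries is unknown, and no gene is called changed. Differences are given as log2 ratios of the mean normalized counts after a pseudocount of 1. PCIF1 itself had 269.6 normalized counts in PCIF1 KO1 cells and 239.3 in PCIF1 KO2 cells, against 239.5 in control cells, which does not check the labels because a small coding edit need not alter nascent transcription. Of 8 melanoma markers, MITF and PMEL reached 10 counts. MITF, the lineage transcription factor gene, had 142.0 counts in PCIF1 KO1 cells and 259.2 in PCIF1 KO2 cells, against 168.5 in control cells. Its log2 ratios were -0.25 and 0.62. It lies on chromosome 3, and the 20 compared genes around it, 10 on each side, had medians of 0.08 and 0.39. PMEL, a melanosome gene, had 21.3 and 23.8 in PCIF1 KO1 and PCIF1 KO2 cells, against 48.4 in control cells, log2 ratios of -1.15 and -1.0. TYR was listed at 0 in every group, SOX10 was at 0 in PCIF1 KO1 and control cells and at 6.08 in PCIF1 KO2 cells, TYRP1 stayed at or below 6.81, and MLANA, DCT and S100B at or below 2.04. The line labelled as melanoma thus transcribed MITF, had PMEL at a low level, and had the other 6 markers at or near 0. In the clones PMEL was close to PRDM1, a marker of B and plasma cells, which had 24.0 counts in PCIF1 KO1 and 23.0 in PCIF1 KO2 cells. Only MITF thus stood well above the markers of that other lineage in the clones. A lower value in bulk cells can stand for fewer transcribing cells or for less transcription in each.

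The unfolded protein response adjusts the folding capacity of the endoplasmic reticulum (ER) to the load of new secretory and membrane proteins. Its sensor IRE1, encoded by ERN1, cuts the XBP1 mRNA, and the rejoined form encodes an active transcription factor. A second sensor, ATF6, is released by proteases in the Golgi and acts with the CCAAT-binding factor NF-Y on promoter sites named ER stress elements (ERSE). Targets of both factors include the ER chaperones, and genes of ER-associated degradation, which returns misfolded proteins to the cytosol for destruction. PRO-seq counts polymerases and cannot show how much XBP1 mRNA was cut.

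The promoters of the genes that carry an exact ER stress element, and that of ERN1, which had the highest ratios and has none in the window searched, are shown first, since the response is known to act through these sites. Sequences are RefSeq's, 250 bases 5′ to 3′ ending just before the annotated start, in build GRCh38.p14: XBP1 at chr22:28800570-28800819, minus strand, HSPA5 at chr9:125241344-125241593, minus strand, and HSP90B1 at chr12:103930160-103930409, plus strand. The others are HERPUD1 at chr16:56931892-56932141, plus strand, SDF2L1 at chr22:21642052-21642301, plus strand, and ERN1 at chr17:64130145-64130394, minus strand. Capitals mark matches on either strand to ERSE (CCAAT and CCACG with 9 bases of any kind between them) or to ERSE-II (ATTGG and CCACG with 1 base between them).
XBP1: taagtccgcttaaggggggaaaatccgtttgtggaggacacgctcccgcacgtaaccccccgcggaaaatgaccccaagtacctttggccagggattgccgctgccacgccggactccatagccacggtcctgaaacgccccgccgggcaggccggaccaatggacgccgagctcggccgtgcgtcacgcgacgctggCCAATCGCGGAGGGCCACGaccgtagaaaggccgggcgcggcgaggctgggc
HSPA5: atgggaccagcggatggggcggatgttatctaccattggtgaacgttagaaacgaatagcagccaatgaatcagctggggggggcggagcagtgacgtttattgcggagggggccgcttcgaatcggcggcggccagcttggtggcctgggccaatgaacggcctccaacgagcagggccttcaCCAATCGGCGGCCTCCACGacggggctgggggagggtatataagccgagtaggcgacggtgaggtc
HSP90B1: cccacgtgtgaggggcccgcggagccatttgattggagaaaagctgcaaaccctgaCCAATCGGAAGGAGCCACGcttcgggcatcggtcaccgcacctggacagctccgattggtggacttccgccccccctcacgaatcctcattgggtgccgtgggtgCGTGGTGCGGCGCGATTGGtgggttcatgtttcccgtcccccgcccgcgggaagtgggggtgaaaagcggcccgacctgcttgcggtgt
HERPUD1: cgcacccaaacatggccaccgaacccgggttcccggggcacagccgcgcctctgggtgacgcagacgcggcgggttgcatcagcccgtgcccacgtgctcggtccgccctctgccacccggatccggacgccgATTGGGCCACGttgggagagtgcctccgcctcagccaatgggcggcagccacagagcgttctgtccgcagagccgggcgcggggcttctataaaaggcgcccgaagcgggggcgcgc
SDF2L1: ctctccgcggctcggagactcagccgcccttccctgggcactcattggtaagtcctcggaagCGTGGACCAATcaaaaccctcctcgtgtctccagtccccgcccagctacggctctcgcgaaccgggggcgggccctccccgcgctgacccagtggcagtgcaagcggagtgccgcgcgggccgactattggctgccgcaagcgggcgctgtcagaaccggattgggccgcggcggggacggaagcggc
ERN1: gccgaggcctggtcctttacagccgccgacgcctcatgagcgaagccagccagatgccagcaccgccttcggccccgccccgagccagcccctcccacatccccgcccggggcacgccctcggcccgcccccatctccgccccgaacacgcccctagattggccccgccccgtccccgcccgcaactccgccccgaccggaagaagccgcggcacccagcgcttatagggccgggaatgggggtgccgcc

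The windows searched reached from 250 bases before to 50 bases after each start, on both strands. ERSE was found in 3 of the 10 genes (XBP1, HSPA5 and HSP90B1), against 0.0769% of 35116 promoters in the RefSeq table. In XBP1 the match ran from -52 to -34 relative to the start and in HSPA5 from -66 to -48. HSP90B1 held 2 matches, from -194 to -176 and, on the opposite strand, from -89 to -71. ERSE-II was found in HERPUD1, from -117 to -107, and in SDF2L1, on the opposite strand from -188 to -178, against 0.0541% of all promoters. The core of the UPR element, TGACG directly followed by TGG, was in none of the 10 and in 0.729% of all. CCACG alone, which is part of both ERSE forms and was counted inside them too, was in 9 of the 10, ERN1 being the exception, and in 38.1% of all promoters. RefSeq places the start of ERN1 675 bases inside the GENCODE gene and that of HSP90B1 303 bases inside it. No base before those GENCODE starts was therefore searched. The start of PDIA4 lies 172 bases inside, so the bases before its GENCODE start were searched only in part. These windows were richer in G and C than most, with a median of 69.5% against 58.7% over the whole table. The genes are known targets of this response, so the matches describe the promoters and are not a result of the knockout.

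Levels per kb of counted length placed HSPA5, HERPUD1 and XBP1 high among the 12525 compared protein-coding genes. HSPA5, which encodes BiP, the central ER chaperone, had 366.2 normalized counts per kb in PCIF1 KO1 cells and 341.3 in PCIF1 KO2 cells, against 331.9 in control cells, above 98.0% of coding genes in control cells. HERPUD1 followed it in every group, with 359.3 and 319.9 per kb in PCIF1 KO1 and PCIF1 KO2 cells, against 279.0 in control cells. XBP1 was the third in every group. The partners of BiP stood lower: DNAJB9 was above 71.8% of coding genes in control cells and SDF2L1 above 69.7%. SEL1L was the lowest of the 10 in every group, with 19.3 and 18.3 per kb in PCIF1 KO1 and PCIF1 KO2 cells, against 16.4 in control cells, and it stood above 30.0% of coding genes in control cells. Ranks between these ends were less fixed: ERN1 was the sixth of the 10 in both clones and the ninth in control cells, and EDEM1 was the ninth in PCIF1 KO1 cells, the seventh in PCIF1 KO2 cells and the eighth in control cells. Without a spread over libraries, it cannot be said which neighbours in this order differ. The lengths are those of the deposited table, which are close to summed exons. They lie within 299 bases of the GENCODE release 44 exon length for 7 of the 10, but are 8289 bases shorter for ERN1, 2622 shorter for HSPA5 and 8397 shorter for HSP90B1, so levels of these 3 depend on the annotation used.

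**Figure D1:**
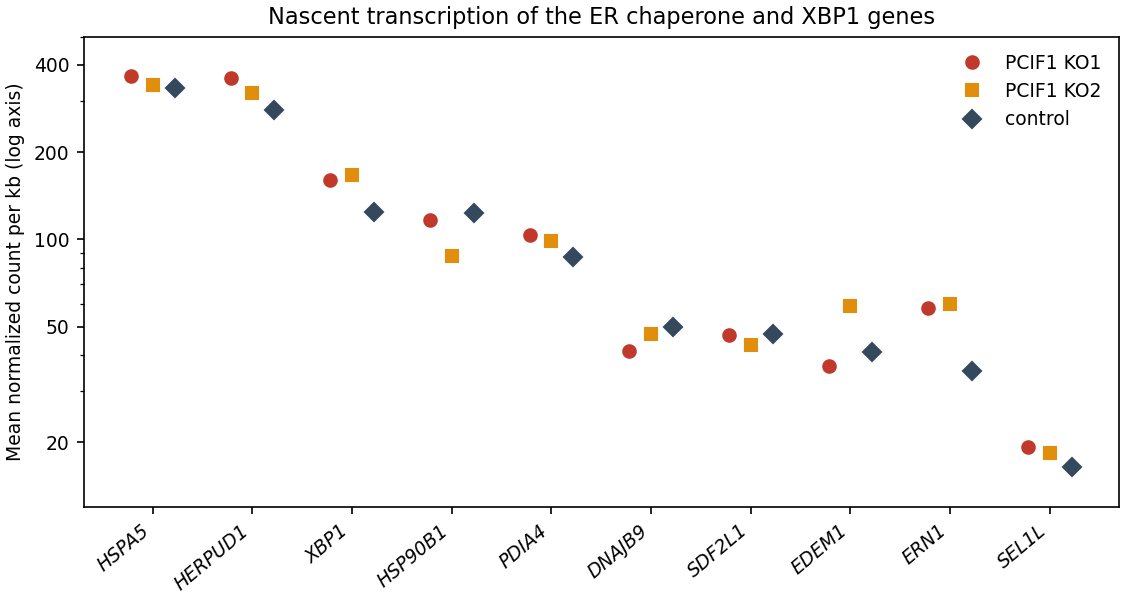
Mean normalized count per kb (log axis) of the 10 genes in PCIF1 KO1, PCIF1 KO2 and control cells, each point the authors' mean over 3 libraries. HSPA5 and HERPUD1 are the highest and SEL1L the lowest in every group, and ERN1 stands higher in both clones than in control cells.

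ERN1 had the highest ratios to control of the 10 genes in both clones. This sensor gene (chromosome 17, 64039080 to 64130819, minus strand) had 631.2 normalized counts in PCIF1 KO1 cells and 648.8 in PCIF1 KO2 cells, against 382.4 in control cells. Its log2 ratios were 0.72 in PCIF1 KO1 (1.65-fold) and 0.76 in PCIF1 KO2 (1.69-fold), and 4.63% and 5.77% of all compared genes had a ratio as high or higher. Both clones share the control mean, so an odd control value alone would raise both. Between the clones ERN1 was nearly level, at 0.04 for PCIF1 KO2 over PCIF1 KO1. The 20 compared genes around it, 10 on each side, had medians of -0.03 in PCIF1 KO1 and 0.01 in PCIF1 KO2. None of the 20 reached the ratio of ERN1 in PCIF1 KO1, and in PCIF1 KO2 only ICAM2, an adhesion gene with a mean count of 18.2, at 1.08, and LRRC37A3 at 0.84 did. The ratios of ERN1 were therefore not shared by the run of genes in which it lies.

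XBP1, the transcription factor gene that acts downstream of ERN1 (chromosome 22, 28794555 to 28800597, minus strand), was also higher in both clones, by less. It had 483.7 normalized counts in PCIF1 KO1 cells and 506.8 in PCIF1 KO2 cells, against 376.6 in control cells, log2 ratios of 0.36 and 0.43. Of all compared genes, 14.4% in PCIF1 KO1 and 16.2% in PCIF1 KO2 had a ratio as high or higher. Ratios of this size were thus common over that whole set, which was not matched for count. Its neighbours had medians of -0.14 and -0.06, and set against these the ratios of XBP1 were 0.51 and 0.49. The nearest of them, with its annotated start 86 bases from that of XBP1 and a mean count of 100, had ratios of 0.32 and 0.56. Of the 20, 1 stood as high as XBP1 in PCIF1 KO1 and 3 did in PCIF1 KO2.

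The ER chaperone genes lay on both sides of control. HSPA5 (chromosome 9, 125234853 to 125241382, minus strand) had 1431 normalized counts in PCIF1 KO1 cells and 1334 in PCIF1 KO2 cells, against 1297 in control cells, log2 ratios of 0.14 and 0.04. It was the second most transcribed of the 10 by count, after HERPUD1, and among the least displaced. SDF2L1, an ER protein that works with BiP and its J-domain partners (chromosome 22, 21642302 to 21644299, plus strand), was as close to control, with 51.5 counts in PCIF1 KO1 cells and 47.5 in PCIF1 KO2 cells, against 51.7 in control cells. Its log2 ratios were -0.01 and -0.12, and its count was the lowest of the 10. Its neighbours had medians of -0.08 and -0.20, and relative to these SDF2L1 was at 0.07 and 0.08.

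DNAJB9, a J-domain partner of BiP also called ERdj4 (chromosome 7, 108569867 to 108574850, plus strand), was below control in both clones. It had 116.9 normalized counts in PCIF1 KO1 cells and 134.0 in PCIF1 KO2 cells, against 141.1 in control cells, log2 ratios of -0.27 and -0.07. PDIA4, a disulfide isomerase also called ERp72 (chromosome 7, 149003062 to 149028662, minus strand), was above control in both, with 338.3 and 322.7 counts in PCIF1 KO1 and PCIF1 KO2 cells, against 284.3 in control cells. Its log2 ratios were 0.25 and 0.18. These 2 genes of chromosome 7 thus lay on opposite sides of control.

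HSP90B1, which encodes the ER member of the HSP90 family, GRP94 (chromosome 12, 103930107 to 103953931, plus strand), was the member furthest below control, and that in PCIF1 KO2 cells. It had 548.8 normalized counts in PCIF1 KO1 cells and 410.4 in PCIF1 KO2 cells, against 580.4 in control cells. The log2 ratio was -0.08 in PCIF1 KO1 and -0.50 in PCIF1 KO2, and 9.57% of compared genes were as low or lower in the second. In PCIF1 KO2 over PCIF1 KO1 it was -0.42, and 7.29% of compared genes, not matched for count, were as low or lower. Among 3489 genes of like count, this ratio ran from -0.35 to 0.52 once the extremes at each end were set aside. HSP90B1 lay below that range, though replicate error is not known. Its neighbours had a median of 0.03 in each clone, and 19 of the 20 stood above HSP90B1 in PCIF1 KO2. The annotated gene overlaps UQCC6, a mitochondrial protein gene of the opposite strand, over 13169 bases. UQCC6 had 391.3 and 446.9 counts in PCIF1 KO1 and PCIF1 KO2 cells, against 384.5 in control cells. The strand setting of the counting is not given in the sources used here, so reads of the pair may not be fully separated.

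**Figure D2:**
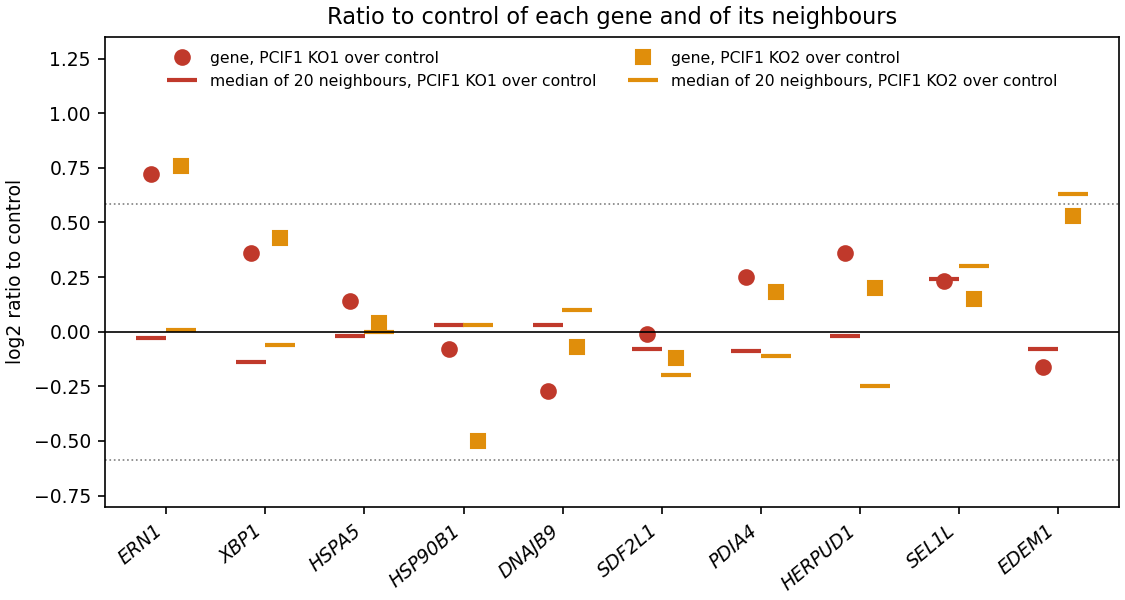
Log2 ratio to control of each gene (circles, PCIF1 KO1; squares, PCIF1 KO2) and the median ratio of its 20 neighbouring compared genes (bars), with dotted lines at 1.5-fold. ERN1 lies past 1.5-fold in both clones while its neighbours lie near 0, whereas EDEM1 in PCIF1 KO2 (0.53) lies near the median of its neighbours (0.63).

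The 3 genes of ER-associated degradation differed from each other. HERPUD1, a membrane protein gene of the degradation complex (chromosome 16, 56932142 to 56944864, plus strand), had the highest count of the 10. It reached 1852 normalized counts in PCIF1 KO1 cells and 1649 in PCIF1 KO2 cells, against 1438 in control cells, log2 ratios of 0.36 and 0.20. Its neighbours had medians of -0.02 and -0.25. In each clone 1 of the 20 neighbours stood as high as HERPUD1. The annotated gene overlaps 2 noncoding genes of the same strand, over 1065 and 699 bases, which are among its 20 neighbours and whose reads may not be fully separated from it. The first had 14.1 counts in PCIF1 KO1 cells and 9.54 in PCIF1 KO2 cells, against 14.2 in control cells. The second had 30.2 and 23.3 in PCIF1 KO1 and PCIF1 KO2 cells, against 30.7 in control cells.

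SEL1L, the adaptor of the HRD1 ubiquitin ligase (chromosome 14, 81471547 to 81533853, minus strand), had 184.2 normalized counts in PCIF1 KO1 cells and 174.8 in PCIF1 KO2 cells, against 157.1 in control cells. Its log2 ratios were 0.23 and 0.15, and its 20 neighbours had medians of 0.24 and 0.30. The starts of these neighbours lay from -3917216 to 7029117 bases from that of SEL1L. The nearest, GTF2A1 (-0.1 and 0.1) and GTF2A1-AS1 (0.09 and 0.06), stood below SEL1L, and CEP128, the next (0.32 and 0.44), above it. FLRT2, the highest, had 4.91 and 4.82. The medians therefore do not show that nearby genes shared the ratios of SEL1L. Set against its neighbours SEL1L was at -0.01 and -0.15.

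EDEM1, a mannosidase-like protein that passes misfolded glycoproteins to degradation (chromosome 3, 5187646 to 5219958, plus strand), was the member on which the clones differed most. It had 247.5 normalized counts in PCIF1 KO1 cells and 399.3 in PCIF1 KO2 cells, against 276.2 in control cells. The log2 ratio was -0.16 in PCIF1 KO1 and 0.53 in PCIF1 KO2. Between the clones it was 0.69 for PCIF1 KO2 over PCIF1 KO1 (1.61-fold), and 2.81% of compared genes, not matched for count, were as high or higher. Among 5778 genes of like count, this ratio ran from -0.35 to 0.53 once the extremes at each end were set aside. EDEM1 lay above that range.

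The genes around EDEM1 had the same pattern. Their medians were -0.08 in PCIF1 KO1 and 0.63 in PCIF1 KO2, and 19 of the 20 were above control in PCIF1 KO2, against 7 in PCIF1 KO1. In PCIF1 KO2 over PCIF1 KO1 all 20 were above 0, with a median of 0.69, equal to that of EDEM1 itself. CRBN, a ubiquitin ligase substrate receptor gene on one side, had ratios of 0.26 and 0.96, and the DNA repair gene RAD18 on the other side had -0.07 and 0.56; both were named after their values were seen. Set against its neighbours, EDEM1 was at -0.08 in PCIF1 KO1 and -0.10 in PCIF1 KO2. The number of copies of this stretch of chromosome 3 was not measured, and its part in the level of EDEM1 was not tested. A noncoding gene of the opposite strand overlaps the start of EDEM1 over 653 bases and had 28.9 and 45.3 counts in PCIF1 KO1 and PCIF1 KO2 cells, against 38.5 in control cells.

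**Figure D3:**
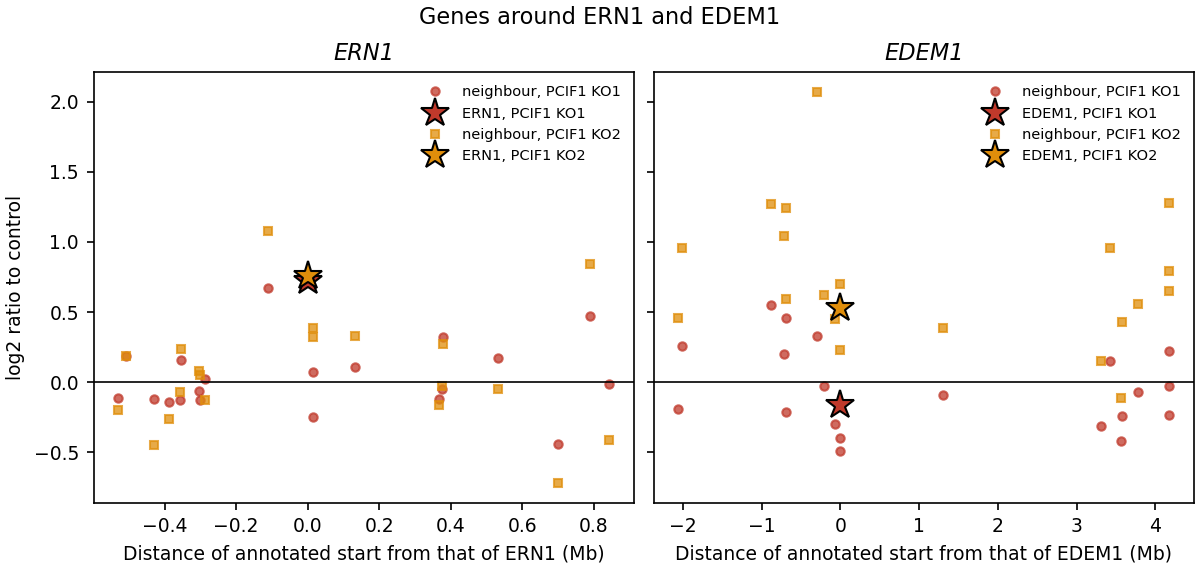
Log2 ratio to control of the 20 compared genes around ERN1 (left) and EDEM1 (right) against the distance of their annotated start in Mb; stars mark the gene itself, circles PCIF1 KO1 and squares PCIF1 KO2. Around EDEM1 19 of 20 neighbours lie above 0 in PCIF1 KO2, while around ERN1 the ratios scatter about 0.

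Counted over the 10 genes, ERN1 alone was at least 1.5-fold higher in PCIF1 KO1 than in control cells, where 6.93% of all compared genes were, and none was at least 1.5-fold lower (4.94% of all). In PCIF1 KO2 against control it was again ERN1 alone, where 9.76% of all were higher, and none lower (7.23% of all). With 10 genes, 1 past the fold is near these backgrounds and is not a result about the group. The backgrounds include genes of lower count and are not matched for count. None was at least 2-fold higher or lower in either clone, where 2.27% and 1.32% of all genes were in PCIF1 KO1 and 3.34% and 1.9% in PCIF1 KO2. At a lower limit of 0.32 on the log2 scale, XBP1, ERN1 and HERPUD1 were higher in PCIF1 KO1, 3 of 10 beside 16.5% of all, and none was lower, beside 13.9%. In PCIF1 KO2, XBP1, ERN1 and EDEM1 were higher, 3 of 10 beside 21.9%, and HSP90B1 was lower, 1 of 10 beside 18.7%. In PCIF1 KO2 against PCIF1 KO1, EDEM1 alone was at least 1.5-fold higher (4.37% of all) and none lower (3.8% of all). None was 2-fold higher (1.05% of all) or lower (0.933% of all) between the clones, and at 0.32 on the log2 scale EDEM1 was higher (12.7% of all) and HSP90B1 lower (11.3% of all).

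The median log2 ratio of the 10 was 0.18 in PCIF1 KO1, with 6 above control, and 0.17 in PCIF1 KO2, with 7 above. The median of all compared genes was 0.00 in each, with 49.2% and 49.5% above control. Relative to neighbouring genes, the median of the 10 was 0.12 in PCIF1 KO1 and 0.06 in PCIF1 KO2. XBP1, ERN1, HSPA5, PDIA4, HERPUD1 and SEL1L were above control in both clones, and HSP90B1, DNAJB9 and SDF2L1 below it in both, SDF2L1 by little and not relative to its neighbours. The genes with an exact ERSE or ERSE-II lay on both sides of control. They ran from HSP90B1 at -0.08 to XBP1 and HERPUD1 at 0.36 in PCIF1 KO1. In PCIF1 KO2 they ran from HSP90B1 at -0.50 to XBP1 at 0.43. ERN1 had the highest ratios of the 10, and no base before its GENCODE start was searched for these motifs. Whether the ratios follow the motifs was not tested.

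The other genes of the pathway were taken from 6 lists of 118 genes by role, of which 116 were compared. Their median was -0.01 in PCIF1 KO1 and -0.04 in PCIF1 KO2. In PCIF1 KO1, 1 of the 116 was at least 1.5-fold higher than control, beside 6.93% of all compared genes. None was lower, beside 4.94%. In PCIF1 KO2, 4 were higher, beside 9.76% of all, and none was lower, beside 7.23%. The same shares stand beside the counts of each list below. They include genes of low count and are not matched for count. With a filter at a mean count of 50, 503 genes were higher and 270 lower in PCIF1 KO1, instead of 1188 and 847. In PCIF1 KO2 873 were higher and 414 lower, instead of 1673 and 1240. These counts are over fewer genes, so they are not shares to set beside those of the lists. None of the 116 was 2-fold off in either clone.

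Among the other sensors and their machinery, 11 genes were compared and none was 1.5-fold off. ATF6, the sensor of the second arm, had 143.6 normalized counts in PCIF1 KO1 cells and 126.9 in PCIF1 KO2 cells, against 106.8 in control cells, log2 ratios of 0.42 and 0.25. ZBTB8OS, which encodes archease, the helper of the ligase that rejoins XBP1 mRNA, had ratios of 0.38 in each clone. The lowest were the ATF6 relative ATF6B (-0.02 and -0.29) and MBTPS2 (-0.16 and -0.14), the protease that makes the second cut in ATF6.

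None of 26 other folding genes was 1.5-fold off, with medians of 0.00 in PCIF1 KO1 and -0.07 in PCIF1 KO2. The J-domain gene DNAJC1 (0.31 and 0.55) and the oxidase gene ERO1B (0.32 and 0.26) were the highest. TXNDC5, a disulfide isomerase gene (-0.39 and -0.29), and DNAJC10, which encodes the ER reductase ERdj5 (-0.23 and -0.43), were the lowest. The list thus had members on both sides of control, as the 10 genes did.

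Of 24 other degradation genes, 2 were at least 1.5-fold higher in PCIF1 KO2, beside 9.76% of all compared genes. None was in PCIF1 KO1, beside 6.93%. With 24 genes, 2 is near the share over all genes and is not a result about the list. SELENOK, an ER membrane selenoprotein gene, had 73.7 normalized counts in PCIF1 KO1 cells and 98.8 in PCIF1 KO2 cells, against 55.7 in control cells, log2 ratios of 0.40 and 0.82. It lies on chromosome 3, and its neighbours had medians of -0.02 and 0.30. FAM8A1, a partner of HRD1, had 0.26 and 0.61 and was named because it passed the fold. HERPUD2, the relative of HERPUD1, had 0.43 and 0.52, with neighbours at -0.03 and -0.05. At the low end were NPLOC4 (-0.27 and -0.51) and UFD1 (-0.31 and -0.45), which encode the partner proteins of the VCP segregase, and the neighbours of NPLOC4 had medians of -0.35 and -0.37.

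In translocation and glycosylation, SSR3, a subunit gene of the translocon-associated complex, was the gene past 1.5-fold in PCIF1 KO1. It had 1340 normalized counts in PCIF1 KO1 cells and 1203 in PCIF1 KO2 cells, against 881.5 in control cells, log2 ratios of 0.60 and 0.45, with neighbours at 0.04 and -0.06. STT3B, a catalytic subunit gene of oligosaccharyltransferase on chromosome 3, had 0.18 and 0.81, with neighbours at 0.08 and 0.53. The lowest were OSTC (-0.33 and -0.36) and STT3A (-0.11 and -0.26) of the same enzyme.

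None of 17 genes of COPII transport was 1.5-fold off against control. KDELR1, a receptor that returns chaperones to the ER, had ratios of 0.25 and 0.50, while its relative KDELR3 had -0.47 and -0.27. The cargo adaptor gene MCFD2 had -0.18 and -0.46. SEC24C, a coat gene on chromosome 10, had -0.01 and 0.52, with neighbours at 0.04 and 0.58. SEC13 on chromosome 3, named after its values were seen, was at 0.69 in PCIF1 KO2 over PCIF1 KO1, with neighbours at 0.54, and with STT3B it made up the 2 of 116 genes at least 1.5-fold higher between the clones, beside 4.37% of all compared genes, and none was lower, beside 3.8%.

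Of 13 genes of the PERK arm, the third branch of the response, CHAC1 was at least 1.5-fold higher in PCIF1 KO2, beside 9.76% of all. This glutathione-degrading enzyme gene had 192.0 normalized counts in PCIF1 KO1 cells and 271.7 in PCIF1 KO2 cells, against 162.0 in control cells, log2 ratios of 0.24 and 0.74. SESN2, a stress-induced regulator gene, had 0.20 and 0.47. The lowest were TRIB3, a pseudokinase gene on chromosome 20 (-0.45 and -0.14, with neighbours at -0.73 and -0.52), and NFE2L2 (-0.11 and -0.21).

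**Figure D4:**
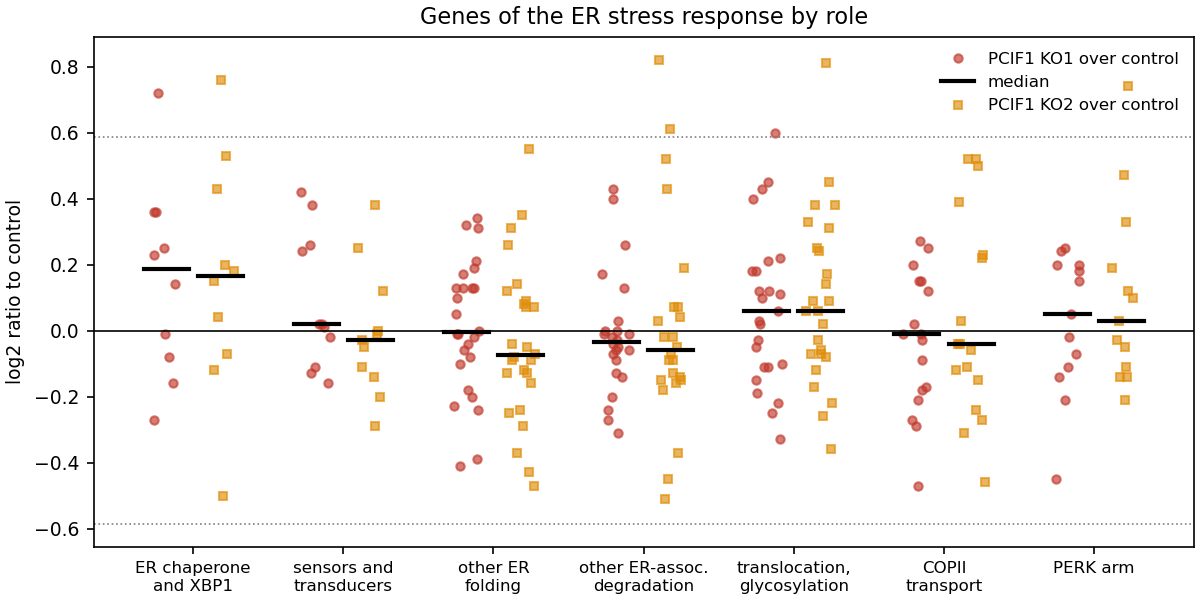
Log2 ratio to control of each compared gene by role (circles, PCIF1 KO1; squares, PCIF1 KO2; bars, medians; dotted lines, 1.5-fold). The medians of the 10 ER chaperone and XBP1 genes are 0.18 and 0.17, and those of the 6 other lists lie between -0.07 and 0.06.

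Markers of B cells and plasma cells, the lineage in which XBP1 is best known, were low. MS4A1 was listed at 0 in every group, and PTPRC stayed at or below 1.10 counts. JCHAIN stayed at or below 1.025, IRF4 at or below 1.062 and CD79A at or below 5.155. Of these 7 markers, 2 were compared. MZB1, an ER protein gene, had 16.7 counts in PCIF1 KO1 cells and 21.4 in PCIF1 KO2 cells, against 20.4 in control cells. Its log2 ratios were -0.28 and 0.06. PRDM1, a transcription factor gene, had 24.0 and 23.0 in PCIF1 KO1 and PCIF1 KO2 cells, against 15.2 in control cells. In the clones this was close to the melanoma marker PMEL, at 21.3 and 23.8. The log2 ratios of PRDM1 were 0.63 and 0.57, the first of them past 1.5-fold, beside 6.93% of all compared genes in PCIF1 KO1.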

How the data were processed

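PRO-seq signal was analysed for 9 libraries of MEL624 cells in 3 groups. The deposited table gives signal as mean normalized count per kb of gene length, averaged by the authors over the replicates of each group, per the file header. Tools listed in the submitters' processing notes, without roles, are DESeq2, featureCounts, Bowtie 1.2.2 and cutadapt 1.14, and builds are hg38, GRCh38.p12 and dm3. Which feature and strand were counted, and whether the spike-in set the scale, is not given in the sources used here; a shift of the whole genome could have been scaled out. The header has 6 names and rows have 5 cells. The gene symbol was taken as the missing cell, because the next cell equals the GENCODE release 44 exon length for 64.4% of 57754 matched identifiers.

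Values were multiplied by length in kb to give mean normalized counts (deposited values are rounded to 0.01). Log2 ratios used a pseudocount of 1, over the 17149 genes whose mean over the groups reached 10. The design foresaw counts past a fold only, since 1 mean per group allows no test. Named were all 10 genes, in each further list the 2 highest and 2 lowest mean ratios, and genes 2-fold off. Genes and lists were chosen with earlier results of these data known. The computation was tested on simulated data. Symbols and positions are from GENCODE release 44 (GRCh38), and promoters from RefSeq, using for each gene the start nearest to that of GENCODE. Python 3.11.15, numpy 2.4.6, pandas 2.3.3 and matplotlib 3.10.9 were used.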

Additional observations from a re-analysis of the deposited data

How the results depend on the processing

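All 30 log2 ratios of the 10 genes moved by less than 0.1 under quantile normalization, median-of-ratios rescaling, values per kb, both other filters, and pseudocounts of 5 or 0.5, and under these the number of the 10 past 1.5-fold was the same in each comparison. With a lower limit of 0.32 on the log2 scale, 3 of the 10 were higher in PCIF1 KO1, 3 higher and 1 lower in PCIF1 KO2, and in PCIF1 KO2 against PCIF1 KO1 EDEM1 was still higher and 1 was lower. Without EDEM1, 0 were higher in PCIF1 KO2 against PCIF1 KO1. Relative to neighbouring genes, an alternative chosen after seeing the data, 9 of the 30 ratios moved by 0.1 or more besides that of EDEM1 between the clones, SDF2L1 lay above 0 in both clones against control, 0 were higher between the clones, the ratio of EDEM1 there was 0.0, just on the other side of 0, and the median of the 10 in PCIF1 KO2 against control was 0.06. That follows from the construction, which subtracts the neighbours' median.

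Counts over all genes depended on the filter. At 1.5-fold 1188 were higher and 847 lower in PCIF1 KO1, 1673 and 1240 in PCIF1 KO2, and 749 and 652 in PCIF1 KO2 against PCIF1 KO1. With no filter these were 4167 and 3760, 4456 and 4640, and 3182 and 3714. With a filter of 50 they were 503 and 270, 873 and 414, and 302 and 132, and with the limit of 0.32 they were 2823 and 2377, 3756 and 3203, and 2173 and 1941. With a pseudocount of 5, 433 were lower between the clones. No paired analysis was possible because the table holds 1 mean per group, and leaving out replicates was not run for the same reason.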
